A study of Mus musculus with 8 samples.

Results

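Adipocyte-specific deletion of the linker histone H1.2 (H1.2AKO) was compared with WT in inguinal white adipose tissue (iWAT), a subcutaneous fat depot. The comparison was made over protein-coding genes with a mean of at least 1 FPKM (fragments per kilobase of transcript, scaled to the reads of the library) over the 4 iWAT libraries, which were 11158 of the 44422 genes in the deposited table and 77.8% of the 14349 genes tested in iWAT. Their number was fixed by mean level and gene type only, with no regard to genotype. WT mice were labelled Flox and carried the loxP-flanked H1.2 gene without Cre, and H1.2AKO mice carried the same floxed gene together with an adiponectin promoter-driven Cre transgene. All were male C57BL/6 mice, 10 weeks old and kept at about 22 °C with free access to food. Each genotype had 2 iWAT libraries, each made from RNA of several mice pooled (the sources differ on how many). The Cre transgene was present in the knockout group only, so its presence and the loss of H1.2 cannot be told apart. 4 further libraries from brown adipose tissue (BAT) of the same genotypes entered the fit and were used to test whether a difference in iWAT differed from that in BAT. The depth of the 4 iWAT libraries lay between 16118634 and 17480325 reads.

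H1.2 is one of the linker histones, which bind where DNA enters and leaves the nucleosome and help to compact chromatin. Mammals carry several somatic variants that partly stand in for each other. iWAT consists of white adipocytes that store triglyceride and release fatty acids, some of which can turn into heat-producing beige adipocytes, together with stromal, vascular and immune cells, in which the adiponectin promoter is not active. In such whole-tissue RNA, fewer cells of a type and less RNA per cell cannot be told apart.

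Both tissue identity and sample makeup were read from marker genes. The adipocyte markers were abundant in all 4 libraries, with Adipoq (adiponectin) between 976 and 1270 FPKM. The 23 skeletal muscle members summed to 224 FPKM in WT replicate 1 but to 5069 in WT replicate 2, 3518 in H1.2AKO replicate 1 and 3341 in H1.2AKO replicate 2. WT replicate 1 thus held little muscle RNA, and muscle genes are therefore not described further. In WT replicate 2, genes secreted by the liver stood out, with Apoa2 (apolipoprotein A-II) at 11.8 FPKM against 0.558 in WT replicate 1, 0.809 in H1.2AKO replicate 1 and 0.456 in H1.2AKO replicate 2. The marker levels by library are drawn in the plot of marker lists.

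**Figure D1:**
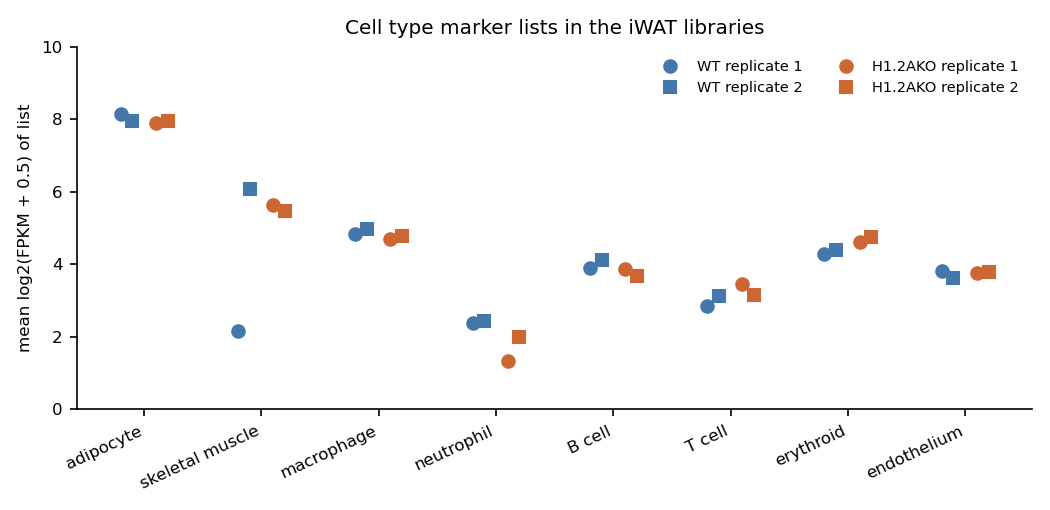
Mean log2(FPKM + 0.5) of the members of 8 cell type marker lists (y axis) in each of the 4 iWAT libraries (circles replicate 1, squares replicate 2, blue WT, orange H1.2AKO). Skeletal muscle markers lie at 2.16 in WT replicate 1 and between 5.46 and 6.08 in the others, while the adipocyte markers lie between 7.89 and 8.15 in all 4.

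The deleted gene was examined first. H1.2 is encoded by Hist1h1c (ENSMUSG00000036181, chromosome 13, 23738808 to 23740367, plus strand, GRCm38, RefSeq symbol H1f2). Hist1h1c gave 23.7 and 24.2 FPKM in the 2 WT pools, against 2.26 and 1.73 FPKM in the 2 H1.2AKO pools. The groups did not overlap, and the mean of 1.99 ± 0.374 FPKM (SD, n = 2) in H1.2AKO was 8.32% of the 23.9 ± 0.325 FPKM (SD, n = 2) in WT. On the log2(FPKM + 0.5) scale the difference was -3.30 ± 0.53 (SE), with an adjusted p of 0.366 over all 14349 genes by limma and 0.0428 by limma-voom on the recovered reads. The 250 bases before the transcription start (RefSeq, GRCm38.p6, chr13:23738557-23738806, plus strand) are shown because they precede the deleted gene. Capitals mark the H1 box AAACACA, an element known from linker histone promoters, and a CCAAT box.
Hist1h1c: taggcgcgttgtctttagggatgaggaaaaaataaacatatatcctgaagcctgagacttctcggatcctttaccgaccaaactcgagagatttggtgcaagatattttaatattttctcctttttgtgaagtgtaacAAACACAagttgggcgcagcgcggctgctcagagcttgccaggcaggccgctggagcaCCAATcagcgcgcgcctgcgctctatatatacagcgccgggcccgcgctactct
Searched on both strands, AAACACA is found in 6.25% and CCAAT in 33.8% of the 32851 RefSeq promoter windows of this length, and the 2 matches here do not overlap.

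Among the other linker histones, H1f0, the variant of differentiated cells, was higher in H1.2AKO, with 50.0 and 52.2 FPKM in WT against 64.9 and 79.2 FPKM in H1.2AKO. Its libraries did not overlap, and the log2 difference was 0.49 ± 0.18 (SE; adjusted p = 0.766). Hist1h1e, which encodes H1.4, stood at 1.74 and 3.05 FPKM in WT and at 2.32 and 4.92 FPKM in H1.2AKO, so its groups overlapped. H1fx, the replication-independent H1.10, stood at 7.14 and 3.17 FPKM in WT and at 3.96 and 4.43 FPKM in H1.2AKO and overlapped as well. Hist1h1a, Hist1h1b and Hist1h1d lay below 1 FPKM on average and were not among the 11158 genes. Of the 4 linker histone genes measured, H1f0 was by FPKM the most abundant in both genotypes. The 10 core histone members had a median log2 difference of -0.09, with 3 higher and 7 lower, and of 0.01 without H1.2AKO replicate 1.

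**Figure D2:**
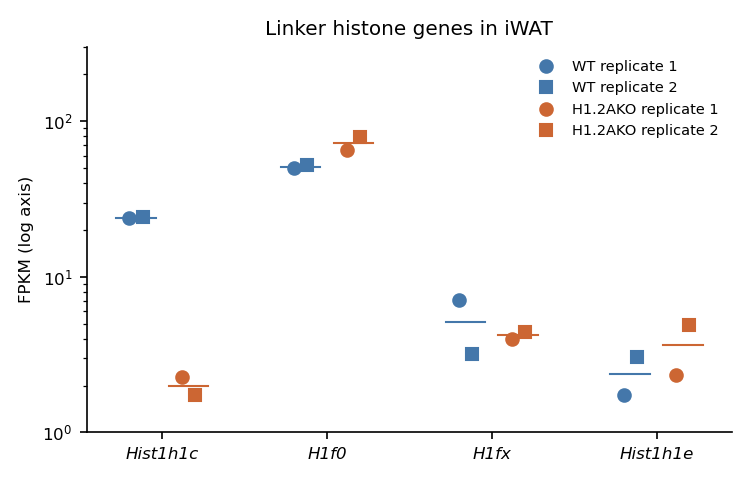
FPKM on a log axis of the 4 linker histone genes above 1 FPKM, with 1 point per iWAT library (blue WT, orange H1.2AKO, circles replicate 1, squares replicate 2) and a line at each group mean. Hist1h1c lies at a mean of 23.9 in WT and 1.99 in H1.2AKO, H1f0 lies higher in both H1.2AKO libraries, and the other genes overlap.

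Over the members, the median absolute log2 difference between genotype means was 0.09. Between the 2 libraries of a genotype it was 0.13 in WT and 0.11 in H1.2AKO. The first value compares means of 2 libraries and the others compare single libraries. Means vary less than single libraries, so these values do not show that genotype differed less than replicates. No gene passed an adjusted p of 0.05 by limma (0% of the genes tested), and the smallest adjusted p of a member was 0.231. The spread of each gene was estimated over iWAT and BAT together. Even the deleted Hist1h1c did not pass (adjusted p = 0.366 by limma, and 0.0613 with the iWAT libraries alone). The absence of calls therefore does not show that differences in iWAT were small. By limma-voom on recovered reads 5 members passed, all lower in H1.2AKO (0.0348% of the genes tested), namely Hist1h1c, Marco, Ccl8, Celsr2 and Svep1. At an unadjusted p under 0.05, 252 members were higher and 350 lower, where the shares over all genes tested were 2.59% and 3.37%. When a single library was left out these numbers moved, and the shares over all genes tested were not counted for those fits. With WT replicate 1 left out, the members that passed the adjusted threshold by limma included Apoa2, Apoa1 and Ahsg. Those liver genes stood out in WT replicate 2, which was then the only WT library. Libraries did not overlap between genotypes for 1829 members that were higher and 2345 that were lower, against 16.7% and 20.5% of all genes tested. Of those, 123 higher and 86 lower members differed by at least 1.5-fold, and 20 and 19 by at least 2-fold. The shares of all genes tested past these fold limits were not counted, so these numbers have no background to be read against. The median log2 difference of the members was -0.01, and 5% lay below -0.29 and 5% above 0.34. Since no gene passed the main test, the values below describe levels in 4 libraries, with the direction in which they differed.

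Among the 14 lower genes with the smallest p, 4 belong to the output of the circadian clock. Ciart, a repressor of the CLOCK-BMAL1 activator, stood at 5.14 and 5.49 FPKM in WT and at 1.35 and 1.21 FPKM in H1.2AKO, or 24.1% of WT (log2 difference -1.71 ± 0.17 SE, adjusted p = 0.231). Tef, Dbp and Hlf encode the PAR bZIP transcription factors, which pass the clock's rhythm on to metabolic genes. Tef stood at 27.8 and 26.5 FPKM in WT and at 17.5 and 15.7 FPKM in H1.2AKO. Dbp stood at 42.9 and 49.3 FPKM against 20.3 and 21.2 FPKM. Hlf stood at 2.74 and 2.39 FPKM against 1.24 and 1.04 FPKM. The 4 were named for having no overlap and a small p, so separated groups and close replicates follow from that choice. Of the 17 clock members, 13 were lower and 4 higher, and 7 of the lower and 2 of the higher had an unadjusted p under 0.05 (3.37% and 2.59% of all genes tested). The labels give no hour of tissue collection, and its part in these values was not tested.

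The clock's activators bind the E-box CACGTG. Promoters of 2 of these genes are shown because they hold that motif (RefSeq, GRCm38.p6, 250 bases before the start, E-boxes in capitals): Ciart at chr3:95882229-95882478, minus strand, with 3 E-boxes, and Tef at chr15:81802423-81802672, plus strand, 1 of 2 windows listed for that gene.
Ciart: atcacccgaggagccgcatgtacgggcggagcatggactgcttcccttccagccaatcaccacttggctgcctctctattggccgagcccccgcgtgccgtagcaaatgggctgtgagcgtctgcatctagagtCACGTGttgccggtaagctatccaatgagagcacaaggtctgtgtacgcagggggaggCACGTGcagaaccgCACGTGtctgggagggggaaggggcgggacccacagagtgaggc
Tef: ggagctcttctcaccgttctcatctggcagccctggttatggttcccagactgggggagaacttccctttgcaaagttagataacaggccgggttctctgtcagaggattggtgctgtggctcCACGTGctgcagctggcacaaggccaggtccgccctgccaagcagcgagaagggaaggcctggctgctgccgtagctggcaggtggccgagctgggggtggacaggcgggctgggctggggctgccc
The motif reads the same on both strands. It is found in 6.02% of all windows and for 5 of the 14 clock members that have a window.

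Other lower genes encode metabolic enzymes and a carrier. Ephx2, the soluble epoxide hydrolase that inactivates epoxy fatty acids, stood at 110.5 and 127 FPKM in WT and at 72.3 and 64.1 FPKM in H1.2AKO, or 57.3% of WT (log2 difference -0.80 ± 0.11 SE, adjusted p = 0.243). Ces1f, a carboxylesterase with close paralogs, stood at 46.1 and 51.6 FPKM against 26.4 and 26.0 FPKM. Cyp2e1, the ethanol-oxidising cytochrome P450, was named after its values were seen. It stood at 923 and 1033 FPKM in WT and at 394 and 241 FPKM in H1.2AKO, and the 2 H1.2AKO libraries were far apart (adjusted p = 0.628). St3gal4, a sialyltransferase, stood at 12.9 and 13.7 FPKM against 8.40 and 7.85 FPKM. Slc25a33, a mitochondrial pyrimidine nucleotide carrier, stood at 6.56 and 6.01 FPKM against 4.03 and 4.31 FPKM. Apart from Cyp2e1, these genes were named by a rule that required both H1.2AKO libraries to lie below both WT libraries.

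Marco, a scavenger receptor that binds bacteria and modified lipoproteins, stood at 30.6 and 25.4 FPKM in WT and at 11.7 and 12.6 FPKM in H1.2AKO, or 43.2% of WT (log2 difference -1.17 ± 0.14 SE, adjusted p = 0.231 by limma and 0.0428 by limma-voom). The lectin gene Cd209b, which encodes SIGN-R1 on lymphoid tissue macrophages, stood at 16.2 and 14.2 FPKM against 6.64 and 7.05 FPKM. Ccl8, a chemokine that attracts monocytes and eosinophils, stood at 125 and 132 FPKM against 71.8 and 68.8 FPKM (adjusted p = 0.512 by limma and 0.0428 by limma-voom). Cd209b and Ccl8 were named after their values were seen. The 19 members of the macrophage marker list had a median log2 difference of -0.21, with 17 lower and 2 higher and 0 at an unadjusted p under 0.05. The part of lymphoid tissue content in the values of Marco, Cd209b and Ccl8 was not tested.

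The remaining lower genes have varied roles. Svep1, a large adhesion protein of the extracellular matrix, stood at 4.67 and 5.34 FPKM in WT and at 2.66 and 2.59 FPKM in H1.2AKO (log2 difference -0.82 ± 0.11 SE, adjusted p = 0.279 by limma and 0.0437 by limma-voom). Celsr2, a seven-pass cadherin of planar cell polarity, stood at 3.89 and 3.93 FPKM against 1.94 and 1.69 FPKM (adjusted p = 0.243 and 0.0428). Pcsk4, a proprotein convertase best known from sperm, stood at 7.02 and 6.18 FPKM against 3.34 and 3.25 FPKM. Zswim7, a partner in homologous recombination, stood at 11.8 and 13.6 FPKM against 8.19 and 8.51 FPKM.

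**Figure D3:**
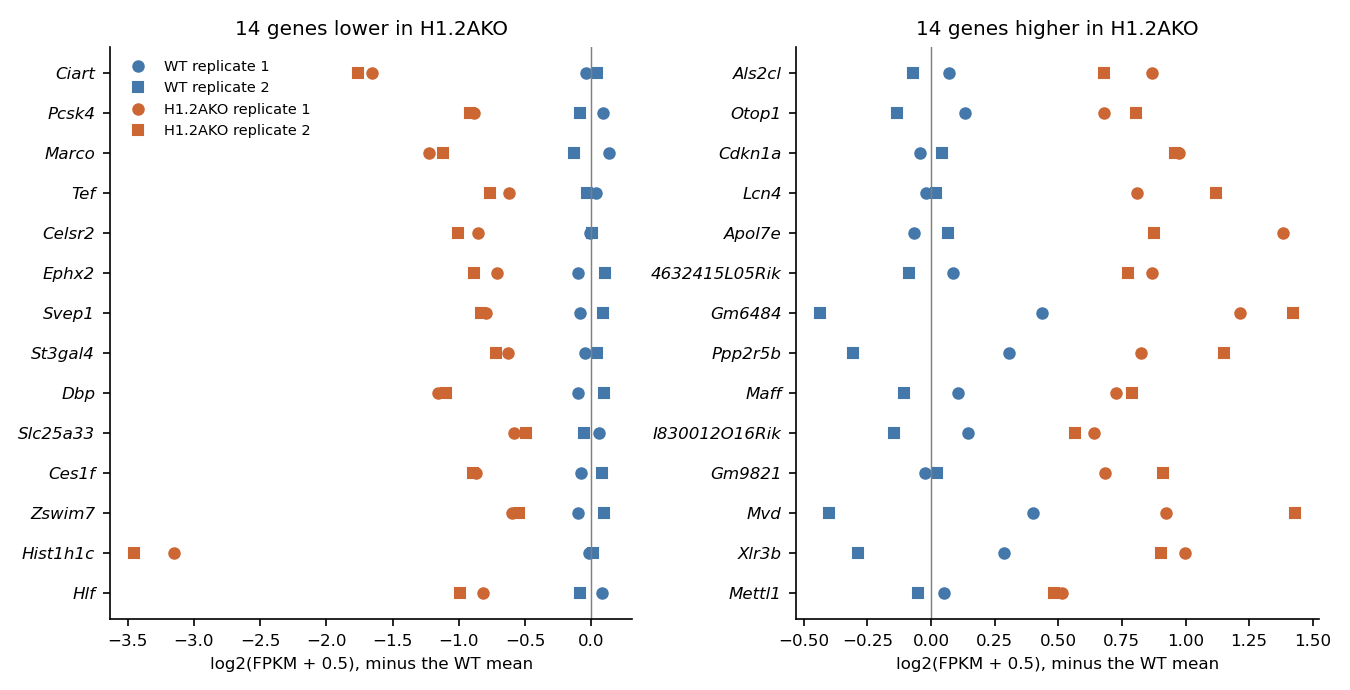
The 14 lower (left) and 14 higher (right) genes with the smallest limma p among members whose libraries do not overlap, skeletal muscle genes left out. The x axis is log2(FPKM + 0.5) minus the WT mean, with 1 point per iWAT library (blue WT, orange H1.2AKO, circles replicate 1, squares replicate 2). Hist1h1c lies farthest from WT, at a log2 difference of -3.30, and the WT libraries of Gm6484, Ppp2r5b and Mvd lie apart from each other.

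Among the higher genes, Als2cl had the smallest p, with 9.94 and 8.99 FPKM in WT against 17.7 and 15.5 FPKM (log2 difference 0.77 ± 0.11 SE, adjusted p = 0.279). Cdkn1a, which encodes the cell cycle inhibitor p21, stood at 10.9 and 11.6 FPKM in WT and at 22.5 and 22.3 FPKM in H1.2AKO, or 199% of WT, with hardly any spread within a genotype (adjusted p = 0.366). Maff, a small Maf transcription factor, stood at 4.78 and 4.06 FPKM against 7.63 and 7.98 FPKM. Otop1, a proton channel counted in the thermogenesis list, stood at 1.84 and 1.45 FPKM against 2.92 and 3.23 FPKM. Mettl1, a tRNA methyltransferase, stood at 2.09 and 1.92 FPKM against 3.08 and 3.00 FPKM. The rule that named these genes required both H1.2AKO libraries to lie above both WT libraries.

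In other genes of the higher set the WT libraries differed from each other. Gm6484, described in the table as angiopoietin-like 8, a secreted regulator of lipoprotein lipase, stood at 52.0 and 28.2 FPKM in WT and at 89.5 and 103 FPKM in H1.2AKO. Its log2 difference was 1.32 ± 0.26 (SE; adjusted p = 0.512), and it was 0.88 without WT replicate 2 (adjusted p = 0.422). Without WT replicate 1 it was 1.75 with an adjusted p of 0.0372, where 1 WT library is left and its spread is taken from the other groups. Ppp2r5b, a regulatory subunit of protein phosphatase 2A, stood at 22.6 and 14.6 FPKM against 32.5 and 40.8 FPKM. Mvd, which makes isopentenyl diphosphate in the mevalonate pathway, stood at 14.7 and 8.21 FPKM against 21.3 and 30.5 FPKM. In all 3, WT replicate 2 was the lowest library.

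The rest of the higher set was weakly expressed or belongs to families of similar genes. Lcn4, a lipocalin, stood at 1.68 and 1.74 FPKM in WT and at 3.37 and 4.31 FPKM in H1.2AKO. Apol7e, of the apolipoprotein L family, stood at 1.10 and 1.25 FPKM against 3.86 and 2.58 FPKM. Xlr3b, of an X-linked family of near-identical copies, stood at 0.832 and 0.394 FPKM against 1.68 and 1.54 FPKM, and its reads may be shared with those copies. The predicted genes 4632415L05Rik and Gm9821 reached 202% and 210% of WT.

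Adipocyte genes as a group were a little lower. Of the 24 adipocyte markers 18 were lower and 6 higher, with a median log2 difference of -0.14 against -0.01 over all members and -0.07 without H1.2AKO replicate 1, and 5 of the lower had an unadjusted p under 0.05 (3.37% of all genes tested). The list summed to 21456 FPKM in WT replicate 1, 17976 in WT replicate 2, 16831 in H1.2AKO replicate 1 and 17104 in H1.2AKO replicate 2, and its part in the other results was not tested. Adipoq itself stood at 1270 and 1201 FPKM in WT and at 1000.02 and 976 FPKM in H1.2AKO (adjusted p = 0.773). Cidec, which fuses lipid droplets, stood at 825 and 805 FPKM against 594 and 492 FPKM. Pnpla2, the triglyceride lipase ATGL, stood at 590.3 and 552 FPKM against 433 and 404 FPKM. Pck1, the enzyme of glyceroneogenesis, stood at 533 and 397 FPKM against 314 and 267 FPKM. Plin4, a lipid droplet coat protein, stood at 215 and 182 FPKM against 153 and 134 FPKM. Cidec, Pnpla2, Pck1 and Plin4, genes of triglyceride storage and release, reached 62.4% to 73.3% of WT with no overlap. They had the smallest p of the adipocyte list, so clear differences follow from that choice. Over the 19 members of the lipolysis and lipid droplet list the median log2 difference was only -0.07, with 14 lower and 5 higher. Plin1, the main droplet coat, overlapped, at 548 and 444 FPKM against 462 and 478 FPKM.

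Genes of triglyceride assembly differed in direction. Agpat6, which encodes the glycerol-3-phosphate acyltransferase GPAT4, stood at 38.5 and 40.6 FPKM in WT and at 28.8 and 25.5 FPKM in H1.2AKO. Agpat9, which encodes GPAT3, stood at 20.7 and 17.1 FPKM against 14.7 and 14.3 FPKM. Dgat1, which adds the last acyl chain, stood at 120.1 and 96.0 FPKM against 88.2 and 85.7 FPKM. Mogat2, of the monoacylglycerol route, was the opposite, at 2.01 and 2.43 FPKM against 2.87 and 4.54 FPKM. Over the list 9 members were higher and 8 lower, with a median of 0.10 that was -0.05 without WT replicate 2. The 22 PPAR alpha targets, genes of fatty acid oxidation, had a median of -0.12 with 16 lower, from -0.24 without WT replicate 2 to -0.005 without WT replicate 1, and Ppara itself, their receptor, stood at 1.82 and 1.48 FPKM against 1.14 and 0.907 FPKM.

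Genes of lipid synthesis were higher on average, and their values depended on 1 WT library. Of the 24 sterol synthesis members 23 were higher, with a median log2 difference of 0.66, and 13 had an unadjusted p under 0.05 (2.59% of all genes tested). Sqle, squalene epoxidase, stood at 5.02 and 2.24 FPKM in WT and at 7.08 and 9.18 FPKM in H1.2AKO. All 18 fatty acid synthesis members had positive differences, with a median of 0.44, and Scd2, a stearoyl-CoA desaturase, stood at 86.0 and 40.2 FPKM against 124 and 189 FPKM. Over the sterol list the mean log2 level was 3.62 in WT replicate 1, 2.92 in WT replicate 2, 3.71 in H1.2AKO replicate 1 and 4.08 in H1.2AKO replicate 2. Without WT replicate 2 the medians became 0.27 for sterol synthesis and -0.02 for fatty acid synthesis. In BAT, over the members tested there, the medians were 0.56 for sterol synthesis and 0.56 for fatty acid synthesis.

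The endoplasmic reticulum (ER) stress list holds chaperones that fold secreted proteins, together with degradation factors and the transcription factors of the response to unfolded proteins. Of its 18 members 14 were lower and 4 higher, with a median log2 difference of -0.24, and 13 of the lower did not overlap between genotypes (20.5% of all genes tested). Pdia6, a protein disulfide isomerase, stood at 48.5 and 48.3 FPKM in WT and at 38.2 and 41.0 FPKM in H1.2AKO (adjusted p = 0.628). Hsp90b1, the chaperone GRP94, stood at 54.4 and 61.6 FPKM against 46.9 and 48.2 FPKM. Sdf2l1, a cofactor of chaperone complexes, stood at 12.1 and 12.9 FPKM against 9.69 and 8.36 FPKM. Pdia4, another disulfide isomerase, stood at 34.0 and 36.8 FPKM against 28.8 and 25.2 FPKM. The H1.2AKO means were at 72.2% to 82.0% of WT for these 4 genes, and none passed the adjusted threshold.

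The ER stress element, CCAAT and CCACG separated by 9 bases, is the site through which the unfolded protein response acts. The promoters of Pdia6 (chr12:17266339-17266588, plus strand) and Hsp90b1 (chr10:86705445-86705694, minus strand), both RefSeq GRCm38.p6, are shown because they hold it (capitals mark each whole element, either strand).
Pdia6: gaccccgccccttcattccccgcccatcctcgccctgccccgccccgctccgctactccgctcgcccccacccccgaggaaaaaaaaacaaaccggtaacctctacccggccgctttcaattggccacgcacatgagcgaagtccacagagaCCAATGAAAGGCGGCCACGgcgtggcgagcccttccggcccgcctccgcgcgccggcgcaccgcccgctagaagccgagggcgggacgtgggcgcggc
Hsp90b1: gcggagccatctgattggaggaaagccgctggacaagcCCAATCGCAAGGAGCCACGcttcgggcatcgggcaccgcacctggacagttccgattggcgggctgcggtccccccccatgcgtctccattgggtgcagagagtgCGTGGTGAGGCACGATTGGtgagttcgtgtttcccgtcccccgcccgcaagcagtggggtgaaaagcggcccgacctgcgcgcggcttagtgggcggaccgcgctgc
The element is found in 0.113% of all windows, and in those of 6 of the 16 listed members that have a window. The other 4 are Hspa5, Calr, Creld2 and Dnajc3.

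Immune cell genes differed by cell type. MHC class II genes, which present antigen on B cells, dendritic cells and macrophages, were lower in 10 of 10 members with a median log2 difference of -0.28. Of these 9 did not overlap (20.5% of all genes tested), and 0 had an unadjusted p under 0.05. H2-Eb1, a class II beta chain, stood at 514 and 556 FPKM in WT and at 432 and 441 FPKM in H1.2AKO. H2-DMa, which loads class II with peptide, stood at 38.1 and 40.9 FPKM against 30.8 and 33.4 FPKM. The 17 B cell members were all lower, with a median of -0.20, and Cd79b, a part of the B cell receptor, stood at 101 and 95.9 FPKM against 73.0 and 72.2 FPKM. T cell markers lay the other way, with 15 of 17 higher and a median of 0.31. Cd6, a T cell surface receptor, stood at 4.94 and 5.74 FPKM against 7.38 and 6.90 FPKM. The T cell median ran from 0.15 without WT replicate 1 to 0.48 without H1.2AKO replicate 2, and the B cell median ran from -0.33 without WT replicate 1 to -0.08 without H1.2AKO replicate 2. In BAT, Cd79b stood at only 0.474 and 0.538 FPKM in WT and at 0.866 and 1.29 FPKM in H1.2AKO. The part of B cell and macrophage content in the MHC class II values was not tested. Nor was the part of lymphoid tissue content of the iWAT pools in the B cell, T cell and MHC class II values.

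Of the 8 neutrophil members 6 were lower and 2 higher in H1.2AKO. Elane, neutrophil elastase, stood at 2.98 and 2.07 FPKM in WT and at 0.567 and 1.07 FPKM in H1.2AKO. Camp, the antimicrobial cathelicidin, stood at 4.58 and 8.23 FPKM against 1.67 and 2.78 FPKM. Retnlg, a resistin-like neutrophil protein, stood at 3.45 and 5.20 FPKM against 0.715 and 1.77 FPKM. The median was -1.03, but S100a9, the abundant calcium-binding protein, stood at 13.5 and 13.3 FPKM against 3.08 and 12.5 FPKM. Without H1.2AKO replicate 1 the median was -0.12. Hemoglobin genes, from red cells, lay the other way, with Hba-a1 at 139 and 133 FPKM in WT and at 193 and 218 FPKM in H1.2AKO, and all 6 erythroid members higher. Hba-a1 and Hba-a2 are near-identical copies between which reads may be shared. The part of blood content in the neutrophil and hemoglobin values was not tested.

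Interferon-stimulated genes were slightly higher. Of 31 members 27 were higher and 4 lower, with a median log2 difference of 0.19, which ran from 0.11 without WT replicate 2 to 0.30 without WT replicate 1. I830012O16Rik, named Ifit3b in GENCODE and nearly identical to Ifit3, stood at 3.87 and 3.07 FPKM in WT and at 5.65 and 5.34 FPKM in H1.2AKO (log2 difference 0.60 ± 0.14 SE, adjusted p = 0.600). Zbp1, a sensor of Z-form nucleic acid, stood at 5.53 and 4.89 FPKM against 7.43 and 6.72 FPKM. Isg15, a ubiquitin-like protein, stood at 23.9 and 18.1 FPKM against 27.4 and 26.8 FPKM. The promoter of Ifit3b is shown for its interferon-stimulated response elements, TTTC, any 2 bases and TTTC, in capitals (RefSeq, GRCm38.p6, chr19:34607707-34607956, plus strand).
Ifit3b: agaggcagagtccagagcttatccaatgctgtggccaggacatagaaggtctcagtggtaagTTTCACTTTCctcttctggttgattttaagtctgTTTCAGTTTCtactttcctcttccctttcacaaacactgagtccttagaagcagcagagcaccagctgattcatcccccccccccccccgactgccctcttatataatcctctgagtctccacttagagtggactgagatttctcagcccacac
On either strand the motif occurs in 2.98% of all windows, and in those of 14 of the 23 interferon members with a window.

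**Figure D4:**
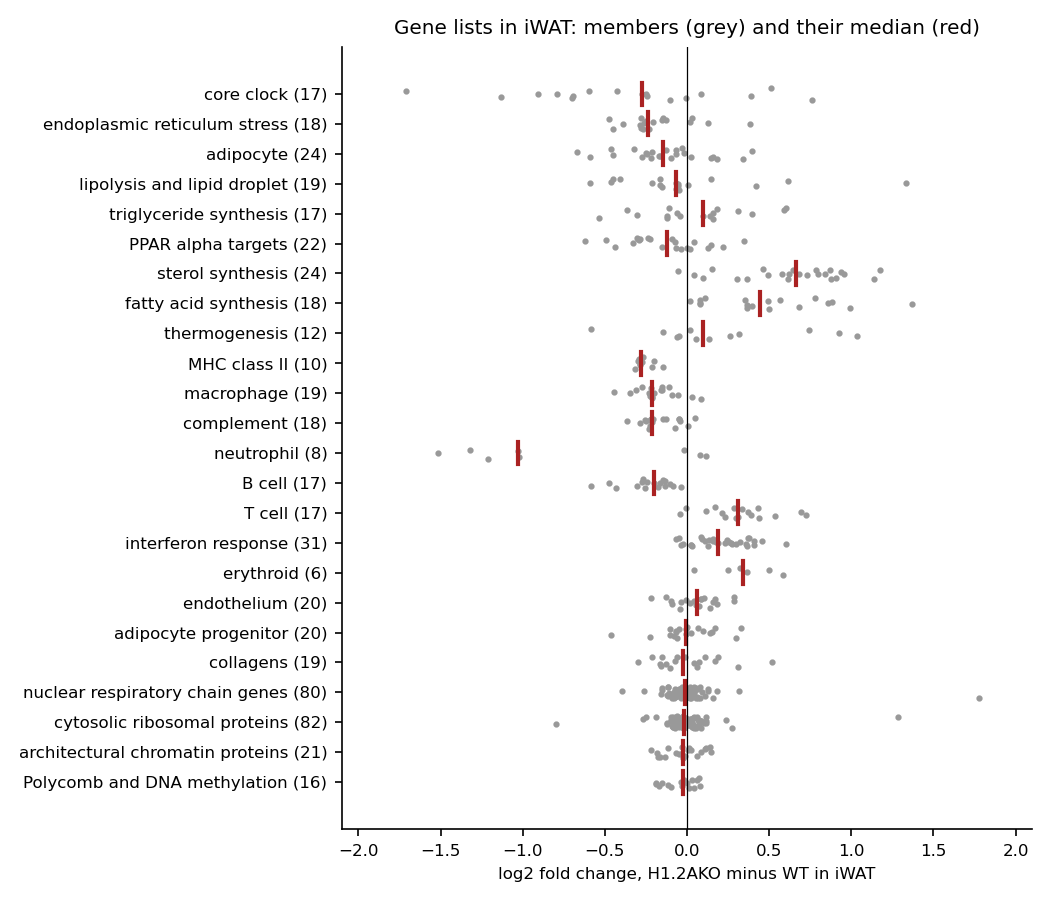
Log2 difference between H1.2AKO and WT in iWAT (x axis) of every member of 24 gene lists (grey points, 1 gene each; number of members in brackets), with the list median as a red bar. Sterol synthesis lies highest, at 0.66, and neutrophil genes lowest, at -1.03, while respiratory chain, ribosomal, collagen and chromatin lists lie between -0.03 and -0.01.

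Many groups showed little difference. The 80 nuclear respiratory chain genes had a median log2 difference of -0.01, the 82 cytosolic ribosomal proteins -0.02, the 19 collagens -0.03, the 20 endothelial markers 0.06 and the 20 adipocyte progenitor markers -0.01. Chromatin regulators were as flat, with -0.02 over 21 architectural chromatin proteins and -0.03 over 16 Polycomb and DNA methylation genes. Gene by gene over all members, the median absolute log2 difference between the 2 libraries of a genotype was 0.13 in WT and 0.11 in H1.2AKO. That measure ignores sign and compares single libraries, unlike the list medians, so it is no direct yardstick for them.

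Genes on which the study made further measurements were looked up in the same libraries. Ucp1, the uncoupling protein that lets brown and beige mitochondria make heat, stood at 0.547 and 2.01 FPKM in WT and at 3.41 and 2.33 FPKM in H1.2AKO. Both knockout libraries lay above both WT libraries, with a log2 difference of 1.04 ± 0.38 (SE; adjusted p = 0.767), at a level far below that of the adipocyte markers. The difference was 0.41 without WT replicate 1 and 1.67 without WT replicate 2. Cidea, a beige and brown lipid droplet protein, overlapped, at 65.2 and 36.9 FPKM against 49.3 and 45.7 FPKM. Il10ra, the ligand-binding chain of the interleukin-10 receptor, stood at 11.9 and 10.9 FPKM in WT and at 10.3 and 10.6 FPKM in H1.2AKO. Its log2 difference was -0.12 ± 0.16 (SE; adjusted p = 0.993 by limma), smaller than its standard error, which was estimated over iWAT and BAT together. Il10rb, the shared second chain, stood at 5.15 and 5.34 FPKM against 5.08 and 4.57 FPKM. Il10, Dio2 and Ppargc1a averaged below 1 FPKM and were not among the 11158 genes. Thermogenesis genes together (12 members) had a median of 0.10, with 8 higher and 4 lower, and of -0.06 without WT replicate 2. Nrg4, a secreted factor of brown fat counted among them, was lower, with 10.0 and 8.21 FPKM in WT against 5.79 and 5.99 FPKM.

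The differences in iWAT were set against those in BAT by testing the tissue by genotype interaction, for which 0 of 14945 genes passed an adjusted p of 0.05 by limma (0%) and 839 had an unadjusted p under 0.05 (5.61%). Among the 5 members with the smallest p, Ccl2, a monocyte-attracting chemokine, stood at 3.64 and 3.31 FPKM in WT iWAT and at 5.65 and 6.29 FPKM in H1.2AKO iWAT. In BAT it stood at 10.1 and 9.52 FPKM in WT and at 1.63 and 3.18 FPKM in H1.2AKO (interaction 2.58 ± 0.34 SE, adjusted p = 0.351). I830012O16Rik was higher in H1.2AKO iWAT but lower in BAT, where it stood at 1.08 and 1.09 FPKM in WT and at 0.482 and 0.409 FPKM in H1.2AKO. Ucp3, a mitochondrial carrier related to Ucp1, went from 8.61 and 7.30 FPKM in WT to 9.03 and 9.65 FPKM in H1.2AKO iWAT, and from 47.4 and 49.7 FPKM to 28.3 and 30.6 FPKM in BAT. Marco was listed at 0 in 3 of 4 BAT libraries, so its iWAT difference had no counterpart to be compared with. Gm11808, a predicted gene of short length, went from 49.8 and 47.8 FPKM in WT to 42.3 and 36.0 FPKM in H1.2AKO iWAT, and from 64.4 and 74.7 FPKM to 129.8 and 133 FPKM in BAT. Hist1h1c differed by -3.30 in iWAT and by -4.97 in BAT, and its interaction had an adjusted p of 0.850. The 5 members above were picked for differing between tissues. The clock output genes were lower in BAT as well, by -0.65 for Ciart, -0.39 for Tef, -0.82 for Dbp and -0.63 for Hlf.

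**Figure D5:**
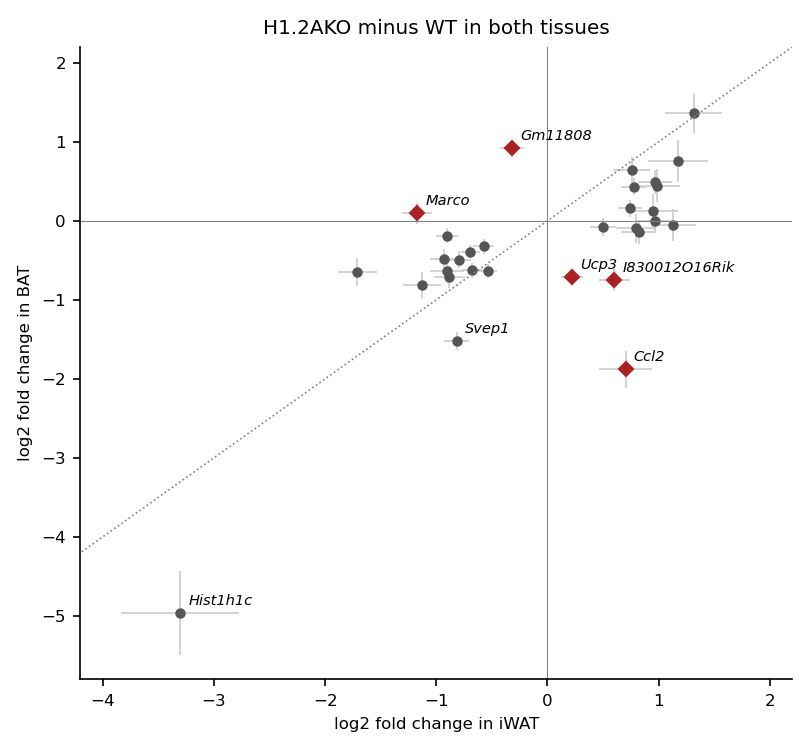
Log2 difference between H1.2AKO and WT in iWAT (x axis) and in BAT (y axis) for the genes of the lower and higher sets (grey circles) and the 5 members with the smallest interaction p (red diamonds), with standard errors from the fit. The dotted line marks equal differences; Ccl2 lies at 0.70 in iWAT and -1.88 in BAT, and Hist1h1c at -3.30 and -4.97.

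Genes near Adipoq, whose promoter drives the Cre transgene, and near the floxed Hist1h1c were read for local differences. The insertion site of the transgene was not examined and need not lie near Adipoq. Within 250 kb of Adipoq on chromosome 16, Eif4a2, a translation initiation helicase, stood at 64.1 and 69.6 FPKM in WT and at 63.7 and 56.7 FPKM in H1.2AKO, and Rfc4, a subunit of the replication clamp loader, stood at 3.29 and 3.64 FPKM against 3.57 and 3.90 FPKM. Within the same distance of Hist1h1c on chromosome 13, in the histone gene cluster, Hist1h2bc, a histone H2B gene, stood at 78.7 and 74.9 FPKM against 72.3 and 80.3 FPKM, and Hist1h4h, a histone H4 gene, stood at 21.8 and 23.1 FPKM against 19.8 and 20.4 FPKM. Hfe, the iron regulator at the cluster's edge, stood at 17.4 and 15.5 FPKM against 13.0 and 14.9 FPKM (log2 difference -0.23 ± 0.14 SE, adjusted p = 0.944). Among these 5 neighbours the log2 differences lay between -0.23 and 0.10, and Eif4a2, Hist1h4h and Hfe were lower without overlap. The 5 other members near either gene overlapped between genotypes, with log2 differences from -0.13 for Hist1h2bg to 0.47 for Hist1h1e.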

How the data were processed

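The deposited table held FPKM that the authors had computed, with gene lengths. The submitters' processing notes name HISAT2 2.0.5, mm10 and GRCm38.p6. Which read counter and FPKM tool followed is not given in the sources used here. In every library 100% of the deposited FPKM values above 0 came to whole reads within 0.01, which gave the depths. Deposited values were analysed as log2(FPKM + 0.5) with R 4.3.3 and limma 3.58.1, with 1 mean per tissue and genotype over 8 libraries and a moderated, trended variance (residual degrees of freedom 4, prior 2.57). Genes with a mean of at least 0.5 FPKM in iWAT were tested, and p-values were adjusted over them by the Benjamini-Hochberg method at 0.05. A fold change on this scale understates that of low genes. The exact permutation test of 2 against 2 cannot go below 0.333. The closing section gives the effect of 14 other settings and of 1 added after seeing the data. The study's own genes, the 14 lower and 14 higher non-overlapping members with the smallest p outside the muscle list, the up to 4 smallest-p members of each list, the 5 smallest interaction p and neighbours within 250 kb were named; others, as stated, after their values were seen. Not all genes that this rule names are reported here. Members and lists were chosen with earlier results of these data known. Promoters are from RefSeq (8863 of 11158 members matched by symbol).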

Additional observations from a re-analysis of the deposited data

How the results depend on the processing

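No gene passed in iWAT under median-ratio scaling, quantile normalization, pseudocounts of 0.1 and 1, robust moderation, the iWAT libraries alone or the protein-coding genes of at least 1 FPKM alone. limma-voom on recovered reads called 5 genes and no filter on low values called 11, of which 5 and 0 were members. Leaving out single libraries gave 1 to 9 calls, and members among them only without WT replicate 1 (5 members, namely Apoa2, Apoa1, Ahsg, Gm6484 and Tmem79). The interaction called 5 genes with no filter, 3 with a pseudocount of 0.1 and 0 to 2 without single libraries, none of them a member. Hist1h1c had a log2 difference of -3.58 by limma-voom and from -3.46 to -3.15 without single libraries, and its adjusted p ran from 0.0428 to 1.0 over the alternatives.

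No pairing by replicate number was evident in iWAT: deviations of same-numbered iWAT libraries correlated at -0.13 over tested genes. In BAT the correlation over the same genes was 0.09. A single correlation per tissue cannot show whether libraries of the same number were handled together. With the replicate block 0 genes were called in iWAT and 0 for the interaction, Hist1h1c keeping -3.30 (adjusted p = 0.670), and with the crossed pairing, chosen after seeing the data, 0 and 0.

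Of 86 other members whose values are given or that the rule names by smallest p, 79 kept their direction in all 15 alternatives. That count was largely fixed in advance. Settings that change only the test or the genes tested leave the log2 difference as it was. For members without overlap, leaving out a single library cannot reverse it. The direction reversed for Plin1 (0.0015) and Hist1h2bc (0.0083) under quantile normalization. Without single libraries, H1fx ran from -0.70 to 0.35, Cidea from -0.45 to 0.36, Plin1 from -0.22 to 0.083, Hist1h2bc from -0.085 to 0.064, Apoa2 from -3.46 to 0.081, Apoa1 from -3.17 to 0.19 and Ahsg from -3.16 to 0.016. Of 810 list medians, 71 moved by more than the spread between replicates, but the 810 include settings that cannot move a median. With 2 libraries per group, small differences could not be resolved.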

Other observations

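Some members differed strongly where the counting of reads is uncertain. Gapdh, a glycolytic enzyme with many processed copies in the genome, was listed at 1.09 and 1.97 FPKM in WT and at 39.8 and 28.5 FPKM in H1.2AKO, and in BAT at 2.62 and 7.42 against 82.4 and 4.04 FPKM, so 1 knockout BAT library stood near WT. Mrps23, a mitochondrial ribosomal protein that the table lists a second time on a patch sequence, stood at 0.416 and 0.626 FPKM against 1.78 and 7.07 FPKM. Gm17720, a predicted gene, was listed at 5.55 and 6.89 FPKM in WT and at 0 in both H1.2AKO libraries, the only member with that pattern. These 3 genes were named after their values were seen, and 28 members lie on patch or unplaced sequences.

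Genes made by the liver were present in WT replicate 2 beyond the other iWAT libraries. Apoa1 stood at 0.0808 and 5.45 FPKM in WT and at 0.211 and 0.119 FPKM in H1.2AKO, and Ahsg (fetuin-A) at 0.0677 and 4.64 FPKM against 0.118 and 0.0333 FPKM. Alb (albumin) stood at 16.3 and 29.5 FPKM against 12.6 and 14.3 FPKM.

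Further lists gave these values. Of 14 retinoid metabolism members 9 were higher and 5 lower. Adh1, an alcohol dehydrogenase that also oxidises retinol, stood at 50.5 and 46.2 FPKM in WT and at 36.8 and 37.2 FPKM in H1.2AKO, and Retsat, retinol saturase, at 27.3 and 25.2 FPKM against 20.5 and 19.6 FPKM. Of 44 matrix glycoproteins and proteoglycans 29 were lower, among them Postn (periostin) at 14.5 and 21.8 FPKM against 8.36 and 12.1 FPKM, while Spon2 was higher at 3.95 and 3.51 FPKM against 5.62 and 6.20 FPKM. None of the 4 genes named here passed an adjusted p of 0.05 by limma or limma-voom.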
